A study of Mus musculus with 8 samples.

Results

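The T and NK cell marker genes examined here were Cd3d, Cd3e, Cd3g, Cd4, Cd8a, Nkg7, Gzma, Gzmb, Klrb1c and Prf1. They were chosen by symbol as 10 of the 46517 genes in the deposited table of liver read counts, by a rule that names symbols and no measured value. Each symbol matched 1 row of the table through GENCODE M21. All livers were from males of 31 weeks on a C57BL/6 background, with 4 MøFoxO1-KO mice and 4 WT littermates. Both groups carried loxP sites on both FoxO1 alleles, and the MøFoxO1-KO mice also carried Lyz2-Cre, which expresses Cre recombinase from the lysozyme 2 promoter of myeloid cells. T cells and NK cells were therefore not the cells in which FoxO1 was targeted, and no group with Lyz2-Cre alone was analysed here. All mice received a diet that induces nonalcoholic steatohepatitis (NASH) for 25 weeks from 6 weeks of age and were fasted for 16 hours before the liver was taken.

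T cells recognize antigen through the T cell receptor, whose antigen-binding chains signal through the CD3 chains, and the coreceptors CD4 and CD8 bind the MHC molecule that presents the antigen. NK cells carry no such receptor and sense other cells through receptors of the Klr and Ncr families. Both kinds of killer cell store perforin, which opens the membrane of a target cell, and granzymes, the proteases that then enter it. Mouse liver normally holds T cells, NK cells and NKT cells among its resident leukocytes, and lymphocytes gather in the liver in steatohepatitis.

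The marker genes were scarce in every liver, none was called as different between MøFoxO1-KO and WT mice, and the groups overlapped for each of them. The 10 genes together took between 47 and 175 reads per liver, out of 15253218 to 18025481 reads counted per liver. Single values lay between 0 reads, for Klrb1c in WT replicate 25, and 39 reads, for Nkg7 in MøFoxO1-KO replicate 29. Only 4 of the 10 genes (Cd3e, Cd3g, Cd4 and Nkg7) passed edgeR's filter on low counts. None of these 4 was called by edgeR's quasi-likelihood test at the limits of 0.05 for the Benjamini-Hochberg adjusted P and 1.5 for the absolute log2 fold change, against 25 of 13278 genes tested, or 0.188%. In the fit without a filter, 0 of 10 marker genes were called, against 120 of 23665 genes, or 0.507%. At an unadjusted P under 0.05 that count was 0 of 4 with the filter and 1 of 10 without it, namely Gzmb, which was higher, as were 5.84% of the genes in that fit. The Wald test of DESeq2 and limma-voom called 0 of the 4 genes as well, beside 144 and 13 of all 13278 genes (1.08 and 0.0979%). Both had 0 of the 4 at an unadjusted P under 0.05. Among all genes, 9.54% were higher and 7.93% lower at that P by DESeq2, and 8.47 and 7.61% by limma-voom. Without the filter they called 0 of 10, beside 174 and 31 of 23665 genes, with 0 and 1 of the 10 at that unadjusted P. For each of the 10 genes the values of the MøFoxO1-KO mice overlapped those of the WT mice. Groups did not overlap for 9.71% of the 13278 genes past the filter, which include only 4 of the 10. With so few marker genes, 0 of 10 is close to that share. A difference in the number of T or NK cells and a difference in RNA per cell cannot be told apart in RNA from whole liver.

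FoxO1 itself, counted over all liver cells, had 328 to 467 reads in WT and 253 to 448 in MøFoxO1-KO livers, so that the whole-liver count does not check its deletion in myeloid cells. Albumin, the major product of hepatocytes, took between 4.72 and 6.73% of the reads of each liver. Levels are given in CPM, the reads of a gene scaled to the effective size of its library after edgeR's TMM normalization. A log2 fold change is MøFoxO1-KO minus WT, and its 95% interval is given in brackets as a lower and an upper bound.

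The window of 300 bases around the annotated start of a gene is shown for 4 of the marker genes, which were chosen to represent the T cell receptor chains and the granule proteins. Windows were taken from RefSeq on build GRCm38.p6, where 9 of the 10 genes had an entry (Cd4 had none), and each runs from 250 bases before the start to 50 bases after it, on the strand of the gene. Capitals mark the RUNX core TGTGGT and the ETS core AGGAAG on either strand, which are recognition sequences of transcription factor families that act in lymphocytes. The window of Cd3d is chr9:44981536-44981835 (plus strand), that of Cd3e is chr9:45009562-45009861 (minus), that of Nkg7 is chr7:43436888-43437187 (plus) and that of Gzmb is chr14:56262285-56262584 (minus).
Cd3d: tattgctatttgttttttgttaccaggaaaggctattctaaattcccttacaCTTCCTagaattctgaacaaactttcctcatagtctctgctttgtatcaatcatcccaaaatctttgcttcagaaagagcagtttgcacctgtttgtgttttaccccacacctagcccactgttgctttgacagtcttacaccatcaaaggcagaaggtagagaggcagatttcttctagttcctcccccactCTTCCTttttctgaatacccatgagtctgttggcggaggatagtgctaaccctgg
Cd3e: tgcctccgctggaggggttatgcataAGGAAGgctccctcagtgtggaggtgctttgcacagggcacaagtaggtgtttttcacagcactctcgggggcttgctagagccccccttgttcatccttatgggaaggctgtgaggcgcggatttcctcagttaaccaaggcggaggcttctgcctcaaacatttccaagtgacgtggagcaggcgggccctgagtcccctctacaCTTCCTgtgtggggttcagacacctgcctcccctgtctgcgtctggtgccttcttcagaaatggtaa
Nkg7: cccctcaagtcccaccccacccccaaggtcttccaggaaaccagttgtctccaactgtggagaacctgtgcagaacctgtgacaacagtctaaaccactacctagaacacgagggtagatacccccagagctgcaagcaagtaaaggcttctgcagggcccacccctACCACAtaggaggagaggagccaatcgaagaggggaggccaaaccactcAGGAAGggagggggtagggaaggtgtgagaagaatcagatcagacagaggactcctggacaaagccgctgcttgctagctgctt
Gzmb: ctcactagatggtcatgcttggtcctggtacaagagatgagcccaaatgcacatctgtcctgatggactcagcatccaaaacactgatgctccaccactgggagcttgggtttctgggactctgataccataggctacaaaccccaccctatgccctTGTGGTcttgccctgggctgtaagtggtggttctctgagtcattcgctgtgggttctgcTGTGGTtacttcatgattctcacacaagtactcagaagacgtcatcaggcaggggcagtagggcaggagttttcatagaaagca
The RUNX core stood in the windows of Gzma, Gzmb, Klrb1c, Nkg7 and Prf1, which are 5 of 9, and in 16.8% of all 32851 windows in the RefSeq table. All 4 granule genes were among these 5, and none of the Cd3 genes or Cd8a was. The ETS core was found in the windows of Cd3d, Cd3e, Klrb1c, Nkg7 and Prf1, likewise 5 of 9, and in 35.4% of all windows. The letters TATAAA of the TATA box occurred in none of the 9 windows and in 13.6% of all windows. The 2 motifs marked in capitals do not overlap in the windows shown, and a match describes the letters only.

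The CD3 chains are encoded side by side on chromosome 9. On GRCm38, Cd3g (ENSMUSG00000002033) spans 44969572 to 44980431 on the minus strand, Cd3d (ENSMUSG00000032094) spans 44981793 to 44987052 on the plus strand and Cd3e (ENSMUSG00000032093) spans 44998743 to 45009590 on the minus strand. The RefSeq starts of Cd3g and Cd3d, which point away from each other, lie 1355 bases apart. An antisense gene overlaps 135 of the 1436 exonic bases of Cd3e, and the library kit as described does not mark strand, so reads from that stretch cannot be assigned to either gene.

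Cd3d encodes the CD3 delta chain of the receptor complex. WT replicates 22, 23, 24 and 25 had 10, 8, 6 and 3 Cd3d reads, and MøFoxO1-KO replicates 26, 27, 28 and 29 had 2, 11, 8 and 24. The lowest and the highest value thus both belonged to MøFoxO1-KO mice. Cd3d averaged 0.392 ± 0.170 CPM (SD, n = 4) in WT and 0.754 ± 0.652 (SD, n = 4) among MøFoxO1-KO mice (two-sided exact permutation P = 0.4). Cd3d had a log2 fold change of 0.89 (-0.54 to 2.33; unfiltered edgeR fit, Benjamini-Hochberg adjusted P = 0.61), and it was 0.19 without MøFoxO1-KO replicate 29.

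Cd3e encodes the CD3 epsilon chain. Its reads numbered 26, 4, 11 and 8 in WT replicates 22 to 25 and 9, 15, 14 and 20 in MøFoxO1-KO replicates 26 to 29. WT replicate 22 exceeded every other mouse, and the other WT mice lay below 3 of the MøFoxO1-KO mice. Mean levels were 0.707 ± 0.541 CPM (SD, n = 4) in WT and 0.948 ± 0.361 (SD, n = 4) among MøFoxO1-KO mice (exact permutation P = 0.486). For Cd3e the log2 fold change was 0.40 (-0.81 to 1.61; edgeR, Benjamini-Hochberg adjusted P = 0.754). It moved with single animals, from 0.12 without WT replicate 23 to 1.05 without WT replicate 22.

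Cd3g, the gene of the CD3 gamma chain, had 24, 4, 7 and 4 reads in WT and 6, 12, 13 and 16 reads in MøFoxO1-KO livers, in the same order of mice. Again WT replicate 22 was the highest of all 8 livers, while the other WT livers were at or below 7 reads. The level of Cd3g was 0.562 ± 0.544 CPM (SD, n = 4) in WT and 0.767 ± 0.311 (SD, n = 4) among MøFoxO1-KO mice (exact permutation P = 0.514). A log2 fold change of 0.43 (-0.95 to 1.81) was obtained (edgeR, Benjamini-Hochberg adjusted P = 0.774), which became 1.35 without WT replicate 22 (unadjusted P = 0.0344, Benjamini-Hochberg adjusted P = 0.309) and 0.18 without WT replicate 23 (edgeR). In WT mice the variance of the reads was 9.46 times their mean for Cd3g and 7.53 times for Cd3e, where counting alone gives a variance equal to the mean, and in MøFoxO1-KO mice it was 1.5 and 1.4 times.

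Of the coreceptor genes, Cd4 (ENSMUSG00000023274, chromosome 6 from 124864692 to 124888221, minus strand) marks helper and regulatory T cells and is also expressed by some mouse dendritic cells. WT livers had 16, 21, 20 and 10 Cd4 reads and MøFoxO1-KO livers had 28, 9, 21 and 17. Neither group stood above the other, since the highest and the lowest raw count both came from MøFoxO1-KO mice. Cd4 amounted to 0.976 ± 0.284 CPM (SD, n = 4) in WT and 1.17 ± 0.402 (SD, n = 4) among MøFoxO1-KO mice (exact permutation P = 0.457). Cd4 had a log2 fold change of 0.26 (-0.57 to 1.10; edgeR, Benjamini-Hochberg adjusted P = 0.768), the narrowest interval of the 10 genes.

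Cd8a (ENSMUSG00000053977, chromosome 6 from 71373427 to 71379173, plus strand) encodes the alpha chain of the coreceptor of cytotoxic T cells and is also found on a subset of mouse dendritic cells. Its reads were 6, 7, 12 and 7 in WT and 10, 5, 13 and 7 in MøFoxO1-KO livers, nearly the same range in both groups. Mean levels of Cd8a were 0.465 ± 0.145 CPM (SD, n = 4) in WT and 0.544 ± 0.165 (SD, n = 4) among MøFoxO1-KO mice (exact permutation P = 0.514). For Cd8a the log2 fold change was 0.22 (-0.91 to 1.36; unfiltered edgeR fit, Benjamini-Hochberg adjusted P = 0.876). The variance of the Cd8a reads was 0.917 times their mean in WT and 1.4 times in MøFoxO1-KO mice, close to what counting alone gives.

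Among the genes of cytotoxic granules, Nkg7 (ENSMUSG00000004612, chromosome 7 from 43437073 to 43438246, plus strand) encodes a membrane protein of the granules of NK cells and cytotoxic T cells. WT livers had 28, 9, 27 and 3 Nkg7 reads, and MøFoxO1-KO livers had 14, 14, 14 and 39. The first 3 MøFoxO1-KO mice agreed in their count, and MøFoxO1-KO replicate 29 stood far above them, while the WT mice fell into a higher and a lower pair. Nkg7 reached 0.960 ± 0.708 CPM (SD, n = 4) in WT and 1.33 ± 0.895 (SD, n = 4) among MøFoxO1-KO mice (exact permutation P = 0.571). The log2 fold change of 0.45 (-0.97 to 1.86; edgeR, Benjamini-Hochberg adjusted P = 0.768) turned to -0.13 without MøFoxO1-KO replicate 29.

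Gzma (ENSMUSG00000023132, chromosome 13 from 113093825 to 113100979, minus strand) encodes granzyme A, a granule protease of NK cells and cytotoxic T cells. Its reads were 10, 6, 12 and 5 in WT and 9, 5, 12 and 20 in MøFoxO1-KO livers. With the exception of MøFoxO1-KO replicate 29, all mice lay between 5 and 12 reads. The mean was 0.477 ± 0.175 CPM (SD, n = 4) in WT and 0.737 ± 0.439 (SD, n = 4) among MøFoxO1-KO mice (exact permutation P = 0.343). Gzma had a log2 fold change of 0.60 (-0.58 to 1.78; unfiltered edgeR fit, Benjamini-Hochberg adjusted P = 0.625), which was 0.15 without MøFoxO1-KO replicate 29.

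Gzmb (ENSMUSG00000015437, chromosome 14 from 56258856 to 56262260, minus strand) encodes granzyme B, which triggers apoptosis of the target cell. This gene had the largest log2 fold change of the 10, on the fewest reads together with Klrb1c. WT livers had 1, 1, 3 and 3 Gzmb reads and MøFoxO1-KO livers 8, 2, 4 and 11, so that MøFoxO1-KO replicate 27 lay within the WT range and the other MøFoxO1-KO mice above it. Levels were 0.117 ± 0.0677 CPM (SD, n = 4) in WT and 0.399 ± 0.271 (SD, n = 4) among MøFoxO1-KO mice (exact permutation P = 0.0857, where 4 mice against 4 allow no P under 0.0286). The log2 fold change of Gzmb was 1.70 (0.01 to 3.39) at an unadjusted P of 0.0484 and was not called (unfiltered edgeR fit, Benjamini-Hochberg adjusted P = 0.426). Across the alternative analyses it stayed positive, with a smallest adjusted P of 0.332 (Benjamini-Hochberg), and the fits that left out 1 mouse gave 1.23 to 1.97.

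Prf1 (ENSMUSG00000037202, chromosome 10 from 61297836 to 61304263, plus strand) encodes perforin, the pore-forming protein of the same granules. It was the single marker gene whose fitted value was lower in MøFoxO1-KO livers. Its reads were 14, 3, 19 and 4 in WT and 3, 6, 4 and 14 in MøFoxO1-KO livers. Here each group held mice near 4 reads and mice at or above 14 reads. Prf1 had 0.573 ± 0.432 CPM (SD, n = 4) in WT and 0.450 ± 0.355 (SD, n = 4) among MøFoxO1-KO mice (exact permutation P = 0.714). In the fit it had a log2 fold change of -0.38 (-1.84 to 1.09; unfiltered edgeR fit, Benjamini-Hochberg adjusted P = 0.832). Leaving out WT replicate 24 turned it to 0.10, and leaving out MøFoxO1-KO replicate 29 made it -1.04.

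Klrb1c (ENSMUSG00000030325, chromosome 6 from 128778485 to 128789215, minus strand) encodes NK1.1, a surface receptor used to define NK cells in C57BL/6 mice. WT livers had 4, 5, 7 and 0 Klrb1c reads and MøFoxO1-KO livers 1, 5, 4 and 7. The 0 in WT replicate 25 allows up to 3 reads, or 0.182 CPM in that library. No liver reached 10 reads, and the ranges of both groups were nearly the same. Klrb1c had 0.230 ± 0.168 CPM (SD, n = 4) in WT and 0.283 ± 0.180 (SD, n = 4) among MøFoxO1-KO mice (exact permutation P = 0.657). Its log2 fold change of 0.24 (-1.59 to 2.08; unfiltered edgeR fit, Benjamini-Hochberg adjusted P = 0.923) turned to -0.15 on leaving out WT replicate 25 and to -0.12 on leaving out MøFoxO1-KO replicate 29. A protein-coding gene on the same strand, Gm44511, shares 413 of the 2961 exonic bases of Klrb1c, and the neighbouring Klrb1 genes are close paralogs, so the assignment of its reads is uncertain.

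**Figure D1:**
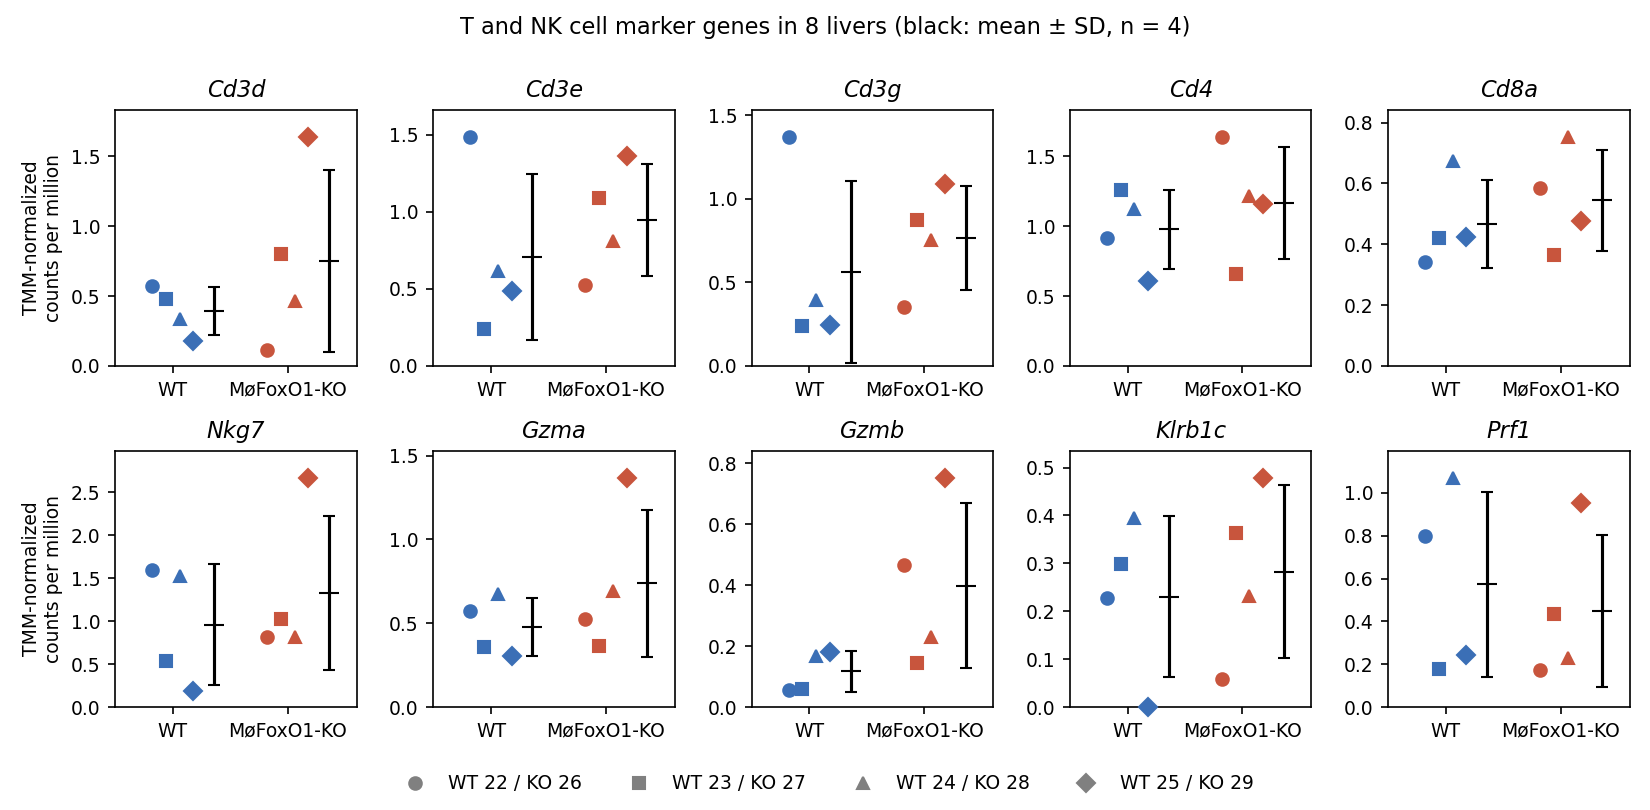
TMM-normalized CPM (vertical axis, linear, from 0) of each marker gene in 4 WT (blue) and 4 MøFoxO1-KO livers (red), with the mean ± SD of each group in black; the symbol shapes name the mice and do not pair them. The groups overlap for all 10 genes, and MøFoxO1-KO replicate 29 is the highest liver for 5 of them.

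For 9 of the 10 genes the fitted log2 fold change was above 0, and the median over the 10 was 0.41, beside -0.01 over the 13278 genes tested with the filter and -0.01 over the 23665 genes tested without it. The marker genes were measured in the same 8 livers, so they are not separate tests of one direction. The intervals of 9 genes included 0. The upper bound exceeded the limit of 1.5 for 7 genes and the lower bound went below -1.5 for 2 genes, Klrb1c and Prf1. At this spread between animals and these read numbers, a change of that size was thus not detectable as present or absent for most of the genes, while for Cd4 and Cd8a both bounds lay within 1.5.

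**Figure D2:**
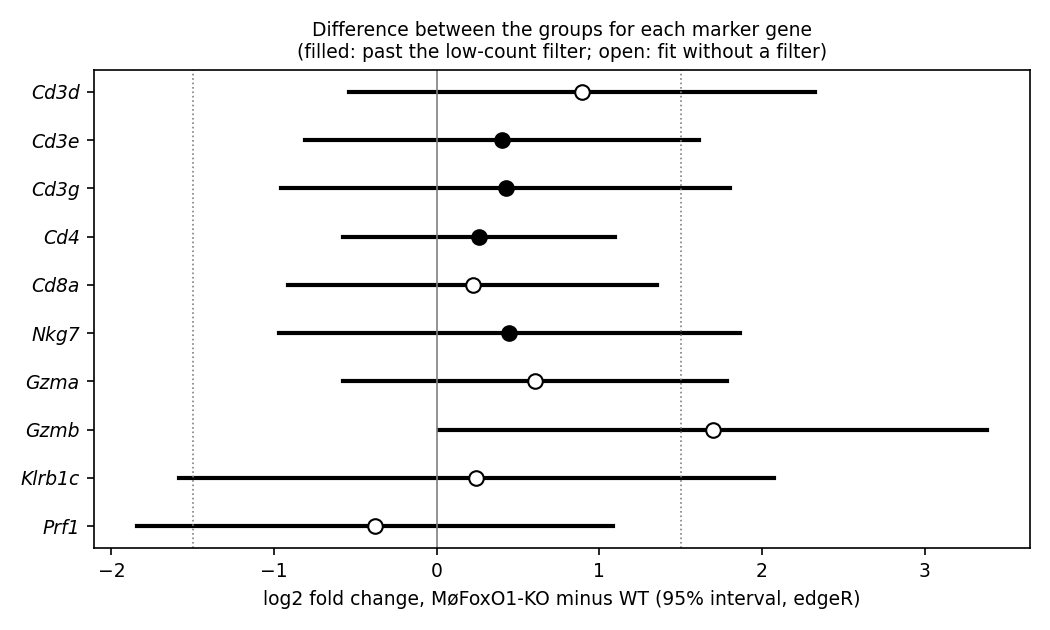
Log2 fold change of each marker gene, MøFoxO1-KO minus WT (horizontal axis), with its 95% interval from edgeR; filled points come from the fit with the low-count filter, open points from the fit without it, and dotted lines mark the limit of 1.5 in either direction. The intervals of 9 genes cross 0, and that of Gzmb begins at 0.01.

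Levels of different genes were compared per kilobase of exon. Nkg7 was the most abundant marker gene at 1.30 CPM per kilobase on average over the 8 livers, followed by Gzma at 0.692, Cd3g at 0.621, Cd3e at 0.576, Cd3d at 0.433, Cd4 at 0.266, Prf1 at 0.249, Gzmb at 0.182, Cd8a at 0.139 and Klrb1c at 0.0867. Nkg7 exceeded Gzma in 7 of 8 livers, by 0.611 ± 0.565 CPM per kilobase (SD of the difference, n = 8). All other neighbours in this order differed by less than the SD of their difference between livers. The closest pair of these was Cd4 and Prf1, which differed by 0.0168 ± 0.209 CPM per kilobase (SD, n = 8), Cd4 being higher in 4 of 8 livers.

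The summed level varied between the livers of each group. Summed over the 10 genes, WT replicates 22, 23, 24 and 25 had 7.94, 4.08, 6.97 and 2.85 CPM. MøFoxO1-KO replicates 26, 27, 28 and 29 had 5.26, 6.11, 6.19 and 11.9 CPM. The exact Poisson 95% interval, which covers counting error only, was 2.10 to 3.79 for the lowest liver and 10.2 to 13.8 for the highest, so that these livers differed beyond counting error. The group means were 5.46 ± 2.39 CPM (SD, n = 4) in WT and 7.38 ± 3.07 (SD, n = 4) among the MøFoxO1-KO livers, with overlap between groups. The log2 ratio of the group means was 0.43, and it was 0.10 without MøFoxO1-KO replicate 29 and 0.22 without WT replicate 25.

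MøFoxO1-KO replicate 29 was the highest liver for Cd3d, Nkg7, Gzma, Gzmb and Klrb1c, and WT replicate 25 was the lowest for Cd4, Nkg7, Gzma and Klrb1c, by level in CPM. In the Cd3 chains, the sum was 1.66 ± 1.19 CPM (SD, n = 4) in WT and 2.47 ± 1.30 (SD, n = 4) among the MøFoxO1-KO livers. Cd4 and Cd8a together had 1.44 ± 0.359 (SD, n = 4) and 1.71 ± 0.519 (SD, n = 4), and the 4 granule genes had 2.13 ± 1.29 (SD, n = 4) and 2.91 ± 1.88 (SD, n = 4) CPM. The coreceptor sum ranged from 1.02 to 2.22 CPM over all 8 livers, the Cd3 sum from 0.910 to 4.09 and the granule sum from 0.910 to 5.73.

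The level of all leukocytes was read from a separate list. Genes expressed by nearly all leukocytes, among them Ptprc (CD45), Laptm5 and Coro1a, summed to 85.5, 41.2, 129 and 75.1 CPM in WT replicates 22 to 25 and to 76.1, 121, 76 and 263 in MøFoxO1-KO replicates 26 to 29. All 10 of these genes passed the filter, and 10 had a log2 fold change above 0, with a median of 0.73; 2 of them, Rac2 and Cd48, were higher at an unadjusted P under 0.05, beside 8.65% of all tested genes, and none was called (edgeR, smallest Benjamini-Hochberg adjusted P = 0.259). Relative to this sum, the T and NK cell marker genes amounted to 7.09 ± 2.96% (SD, n = 4) in WT and 6.16 ± 1.67% (SD, n = 4) among the MøFoxO1-KO livers, with overlap between groups. MøFoxO1-KO replicate 29, which had the most marker reads, stood at 4.54%, and WT replicate 23, with the lowest leukocyte sum, stood at 9.88%.

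**Figure D3:**
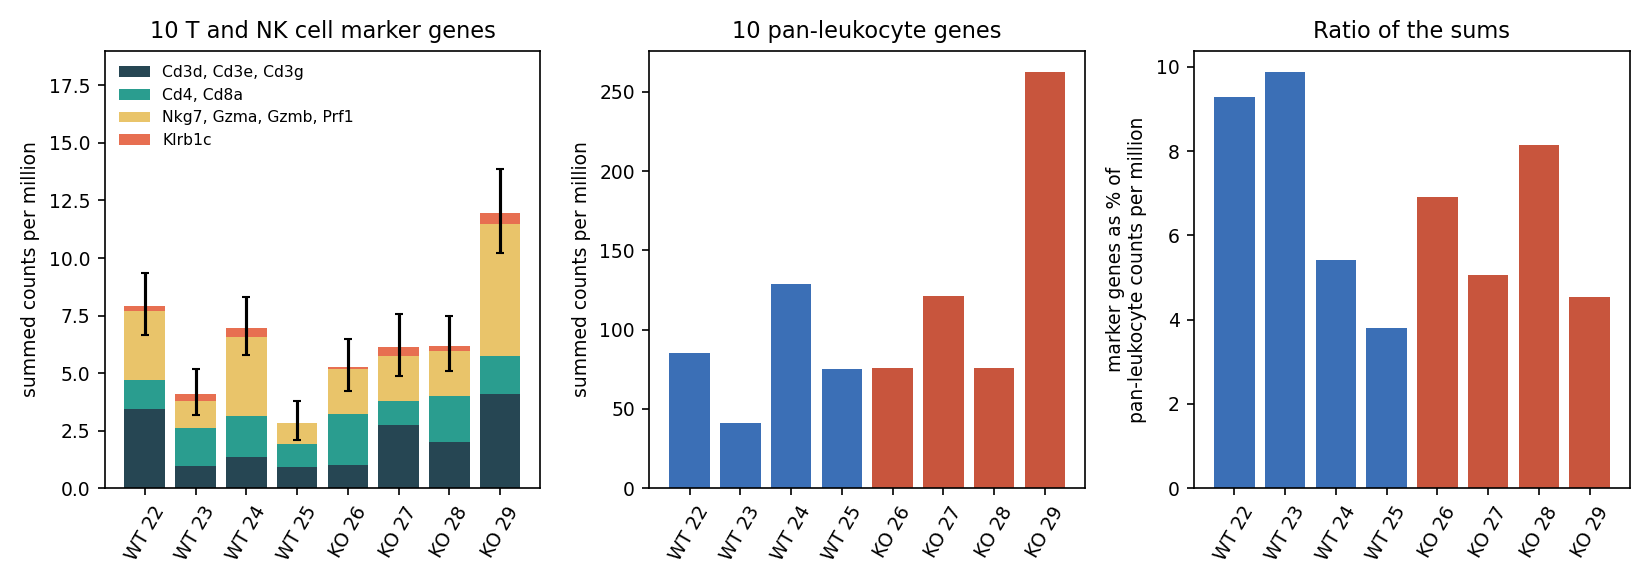
Left, summed CPM of the 10 marker genes in each liver, stacked by role, with the exact Poisson 95% interval of the sum as bars. Middle, the sum of 10 pan-leukocyte genes, and right, the marker sum as a percentage of that sum (WT blue, MøFoxO1-KO red); MøFoxO1-KO replicate 29 is the highest liver in both sums, at 11.9 and 263 CPM, and has 4.54% in the ratio.

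Other cell types that express some of these genes were measured in the same libraries. All 10 dendritic cell markers were detected, 6 passed the filter, and their sum ranged from 13.8 to 34.0 CPM in WT and from 18.9 to 37.5 in MøFoxO1-KO livers. Of these 6, Clec10a and Xcr1 were higher at an unadjusted P under 0.05, as were 8.65% of all tested genes (log2 fold changes 1.26 and 0.95, Benjamini-Hochberg adjusted P = 0.218 and 0.238, edgeR). The 6 B cell markers summed to 3.30 to 21.7 CPM in WT and to 10.9 to 26.6 in MøFoxO1-KO livers, with 5 of 6 log2 fold changes above 0 and none at an unadjusted P under 0.05. Macrophage and Kupffer cell markers had higher sums, from 259 to 464 in WT and from 311 to 1358 in MøFoxO1-KO livers, with 11 of 12 above 0 and 7 higher at an unadjusted P under 0.05, where 8.65% of all tested genes were. Neutrophil and monocyte markers ranged from 5.99 to 20.4 in WT and from 7.13 to 24.5 in MøFoxO1-KO livers. Of the 6 past the filter, 3 had a log2 fold change above 0, and none had an unadjusted P under 0.05 (edgeR). Hepatocyte markers, 5 of 6 above 0, ranged from 61102 to 85862 in WT and from 72594 to 108843 in MøFoxO1-KO livers. Apoa1 and Serpina1a were higher at an unadjusted P under 0.05 (edgeR), as were 8.65% of all tested genes. The log2 fold changes of these 2 genes were 1.07 and 0.90 (edgeR, Benjamini-Hochberg adjusted P = 0.0765 and 0.102). With the low-count filter, edgeR called none of these genes. The unfiltered edgeR fit and DESeq2 both called Marco and Timd4, receptors of Kupffer cells that take up particles and dying cells. Their log2 fold changes were 5.16 and 2.06 without the filter (edgeR, Benjamini-Hochberg adjusted P = 0.00583 and 0.013). Marco had 20, 5, 88 and 50 reads in WT and 769, 2271, 70 and 1893 in MøFoxO1-KO livers, so that MøFoxO1-KO replicate 28 lay within the WT range. The part of each cell type in the marker levels was not tested.

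The rest of the T and NK cell genes was read from 8 further lists with 107 genes in the table. Of these, 42 passed the filter, and edgeR with that filter called 0. At an unadjusted P under 0.05, MøFoxO1-KO livers had 9 of the 42 higher and 4 lower, or 21.4 and 9.52%, beside 8.65 and 8.06% of all 13278 tested genes. The median log2 fold change of the 42 genes was 0.43, with 32 above 0 and 10 below. These genes were measured in the same livers as the leukocyte genes above, and the part of the leukocyte level in them was not tested.

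Among the other genes of the receptor complex, Trac, Trbc1 and Trbc2 encode the constant parts of the alpha and beta chains that bind antigen, and all 3 had log2 fold changes above 0. Trac had 14, 5, 23 and 9 reads in WT and 19, 23, 19 and 32 reads in MøFoxO1-KO livers. Only WT replicate 24 reached the MøFoxO1-KO range. Its log2 fold change was 1.02 (0.01 to 2.04; unadjusted P = 0.0489; edgeR, Benjamini-Hochberg adjusted P = 0.296), and it was 0.54 without WT replicate 23 and MøFoxO1-KO replicate 29. Trbc1 and Trbc2 had log2 fold changes of 0.84 and 0.63 (edgeR, Benjamini-Hochberg adjusted P = 0.553 and 0.452), and their near-identical sequence makes the split of reads between them uncertain. In the gamma delta T cell list, 0 of 6 genes passed the filter, no gene exceeded 10 reads in any liver, and Il17a had none.

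Of the 14 genes of T cell receptor signaling, 8 passed the filter. At an unadjusted P under 0.05, 4 of them were higher and 1 lower, beside 8.65 and 8.06% of all tested genes. Lck, the kinase that starts signaling from the coreceptors, had 21, 2, 19 and 7 reads in WT and 19, 31, 35 and 28 in MøFoxO1-KO livers, a log2 fold change of 1.35 (0.13 to 2.58; edgeR, Benjamini-Hochberg adjusted P = 0.256). Fyn, a related kinase that many cell types express, had a log2 fold change of 0.70 (edgeR, Benjamini-Hochberg adjusted P = 0.294). Zap70, the kinase recruited to the phosphorylated CD3 and zeta chains, had 94, 58, 84 and 173 reads in WT and 247, 241, 189 and 387 in MøFoxO1-KO livers. Every MøFoxO1-KO liver exceeded every WT liver, where 9.71% of all tested genes had groups that did not overlap in either direction. Its level was 6.02 ± 3.09 CPM (SD, n = 4) in WT and 17.3 ± 6.63 (SD, n = 4) among MøFoxO1-KO mice (exact permutation P = 0.0286, the smallest possible). Zap70 had a log2 fold change of 1.52 (0.72 to 2.33), which missed the limit (edgeR, Benjamini-Hochberg adjusted P = 0.113), but was called by the Wald test of DESeq2 and by the unfiltered edgeR fit (Benjamini-Hochberg adjusted P = 0.00225 and 0.0256). Over all alternatives its adjusted P ranged from 0.00225 to 0.313 (Benjamini-Hochberg), the latter without WT replicate 23 and MøFoxO1-KO replicate 29. Averaged over the 8 livers, the level of Zap70 per kilobase was 6.77 times that of Cd3e. WT replicate 25 had the most Zap70 reads of the WT livers and the lowest marker sum of all 8 livers, at 2.85 CPM. MøFoxO1-KO replicate 29 was the highest liver in both, at 387 reads and 11.9 CPM.

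Themis, which sets the strength of T cell receptor signals in the thymus, went the other way. It had 306, 586, 91 and 179 reads in WT and 45, 40, 152 and 56 in MøFoxO1-KO livers, so that WT replicate 24 lay below MøFoxO1-KO replicate 28. Its log2 fold change was -1.91 (-3.18 to -0.63; edgeR, Benjamini-Hochberg adjusted P = 0.166), and DESeq2 called it (Benjamini-Hochberg adjusted P = 0.0131, the smallest of the alternatives, which reached 0.474). WT replicate 23 had the most Themis reads of all livers and the fewest of Cd3e and Lck. The level of Themis per kilobase was 2.08 times that of Cd3e, averaged over the 8 livers. A pseudogene on the opposite strand overlaps 153 of its 9031 exonic bases.

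Among 14 genes of costimulation and checkpoints, 2 passed the filter, and Cd28 had no read in any liver. Lag3, an inhibitory receptor of activated T cells that binds MHC class II, had 17, 23, 18 and 30 reads in WT and 40, 55, 61 and 38 in MøFoxO1-KO livers. The groups did not overlap (exact permutation P = 0.0286), as for 9.71% of all tested genes. Lag3 had a log2 fold change of 1.26 (0.57 to 1.95; edgeR, Benjamini-Hochberg adjusted P = 0.12), below the limit of 1.5. Over the alternatives the adjusted P was between 0.0105 and 0.337 (Benjamini-Hochberg). Havcr2, the gene of the checkpoint receptor TIM-3, and Slamf6, a receptor of lymphocytes, had log2 fold changes of 0.58 and 0.85 (unfiltered edgeR fit, Benjamini-Hochberg adjusted P = 0.707 and 0.584). Tnfrsf9, which encodes the costimulatory receptor 4-1BB, had 2, 0, 8 and 2 reads in WT and 0, 0, 1 and 0 in MøFoxO1-KO livers, too few for a fold change.

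In the list of transcription factors, 4 of 12 genes passed the filter, with 2 lower at an unadjusted P under 0.05, beside 8.06% of all tested genes. Tox, a factor of T cell development and exhaustion, had 107, 106, 130 and 203 reads in WT and 60, 40, 78 and 46 in MøFoxO1-KO livers. Its groups did not overlap, as for 9.71% of all tested genes. Tox had a log2 fold change of -1.18 (-1.78 to -0.59; edgeR, Benjamini-Hochberg adjusted P = 0.102). Its adjusted P was 0.00405 by DESeq2 and 0.0432 in the unfiltered edgeR fit, and at most 0.314 over the alternatives (Benjamini-Hochberg), while the log2 fold change stayed within the limit of 1.5. Zbtb16, which encodes PLZF, the factor that directs NKT cell development, had 24, 53, 27 and 48 reads in WT and 8, 7, 24 and 18 in MøFoxO1-KO livers, with a log2 fold change of -1.31 (-2.32 to -0.29; edgeR, Benjamini-Hochberg adjusted P = 0.211). Tcf7, a factor of naive and memory T cells, had a log2 fold change of -0.15 (edgeR, Benjamini-Hochberg adjusted P = 0.747). An antisense gene overlaps 260 exonic bases of Tox. Factors that define T or NK lineages, such as Foxp3, Gata3, Eomes and Tbx21, did not pass the filter.

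Of 12 genes of homing and cytokine receptors, 10 passed the filter. Klf2, a factor that keeps naive T cells in circulation and is also strongly expressed by endothelium, had 254, 91, 197 and 187 reads in WT and 253, 328, 267 and 364 in MøFoxO1-KO livers. The raw reads overlapped, with 254 in WT replicate 22 and 253 in MøFoxO1-KO replicate 26. In CPM, after TMM normalization, the groups did not overlap (exact permutation P = 0.0286), as for 9.71% of all tested genes. The log2 fold change was 0.89 (0.26 to 1.53; edgeR, Benjamini-Hochberg adjusted P = 0.187). S1pr1, the receptor for lymphocyte exit from lymph nodes and also an endothelial gene, had a log2 fold change of -0.05 (edgeR, Benjamini-Hochberg adjusted P = 0.921).

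NK cell receptors and their adapters had 24 genes in the table, of which 6 passed the filter. Of these 6, 4 had a log2 fold change above 0 and 2 below it. At an unadjusted P under 0.05, 2 were higher and 0 lower, beside 8.65 and 8.06% of all tested genes (edgeR). Klrk1, the gene of the activating receptor NKG2D, had 21, 6, 22 and 17 reads in WT and 18, 25, 37 and 57 in MøFoxO1-KO livers, a log2 fold change of 1.20 (0.14 to 2.27; edgeR, Benjamini-Hochberg adjusted P = 0.25). Hcst, which encodes DAP10, the adapter of NKG2D, had 12, 5, 8 and 18 reads in WT and 26, 12, 13 and 42 in MøFoxO1-KO livers, a log2 fold change of 1.24 (0.04 to 2.44; edgeR, Benjamini-Hochberg adjusted P = 0.284). Both genes overlapped between the groups, and without WT replicate 23 and MøFoxO1-KO replicate 29 the values were 0.53 for Klrk1 and 0.50 for Hcst. Klra3, a Ly49 receptor gene with near-identical paralogs, had 1, 0, 0 and 0 reads in WT and 3, 3, 7 and 4 in MøFoxO1-KO livers, too few in WT for a fold change. Tyrobp and Fcgr3, which myeloid cells also express, had log2 fold changes of 0.85 and 0.20 (edgeR, Benjamini-Hochberg adjusted P = 0.414 and 0.799).

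In the list of further granule and effector genes, 9 of 20 genes passed the filter, with a median log2 fold change of 0.05. Rab27a, which brings granules to the membrane and is expressed in many secretory cells, had 102, 79, 35 and 47 reads in WT and 33, 32, 33 and 36 in MøFoxO1-KO livers. Rab27a had a log2 fold change of -0.84 (-1.60 to -0.07; edgeR, Benjamini-Hochberg adjusted P = 0.26). Srgn, the proteoglycan core of the granules, Stxbp2, which acts in granule release, and Lamp1, a protein of all lysosomes, had log2 fold changes of 0.52, -0.26 and 0.02 (edgeR, Benjamini-Hochberg adjusted P = 0.494, 0.333 and 0.952). Ifng and Fasl, effector genes of activated T and NK cells, had at most 5 reads in any liver.

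**Figure D4:**
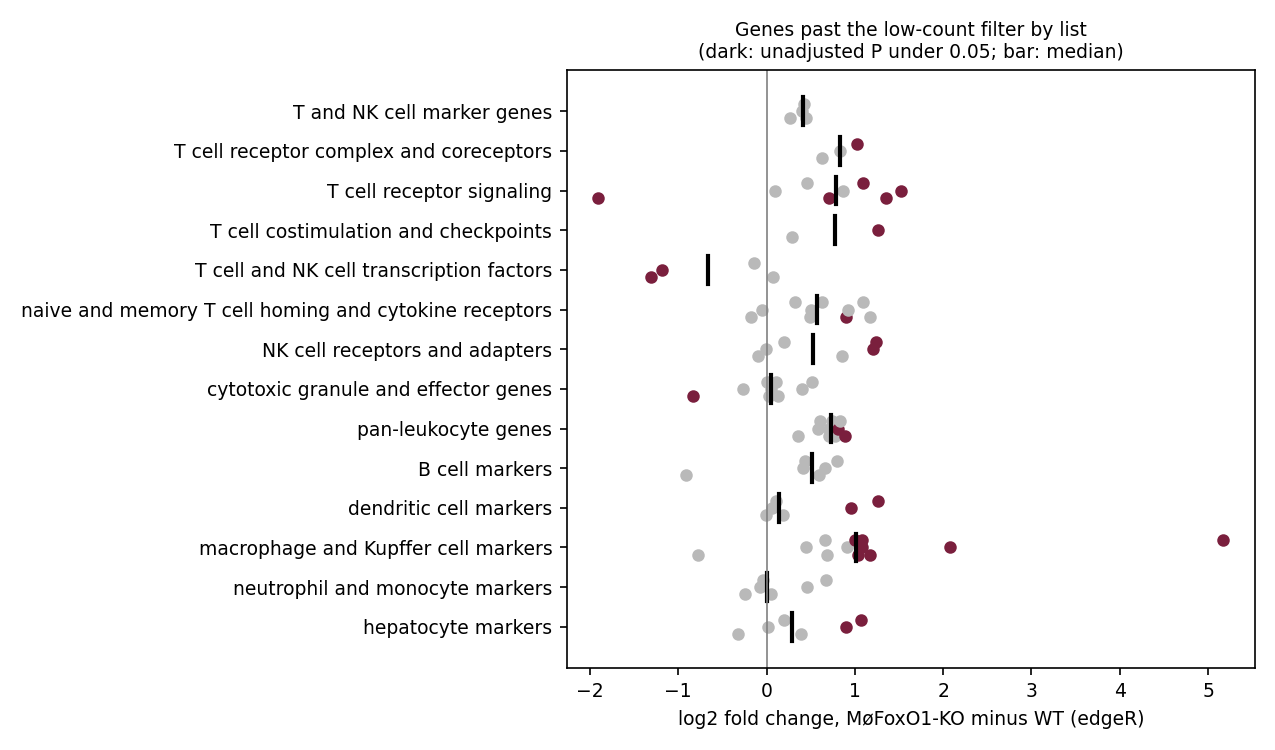
Log2 fold changes, MøFoxO1-KO minus WT (horizontal axis), of the genes of each list that passed the low-count filter, with the median of each list as a bar; dark points have an unadjusted P under 0.05 and none of the points was called in this fit. The medians of the pan-leukocyte and the macrophage lists are 0.73 and 1.01, and that of the 4 marker genes that passed is 0.41.

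The genes whose pattern over the 8 livers was most like that of the summed marker genes were Rap1gap2, Washc3, Nckap1l, Dennd1c and Ccdc32, with Pearson's r on the log2 scale of 0.96, 0.96, 0.96, 0.95 and 0.94. They were picked as the 5 highest of 13274 genes, and all values come from the same 8 libraries, so r describes the ranking only. Nckap1l, a subunit of the actin regulator WAVE that is restricted to blood cells, had 136, 81, 170 and 57 reads in WT and 106, 116, 112 and 265 in MøFoxO1-KO livers. It was highest in MøFoxO1-KO replicate 29 and lowest in WT replicate 25, as the marker sum was. Rap1gap2, a regulator of the small GTPase Rap1, had 17, 6, 22 and 4 reads in WT and 8, 11, 12 and 40 in MøFoxO1-KO livers and shared the same highest and lowest liver.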

How the data were processed

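Liver RNA of 8 mice was sequenced from polyadenylated RNA. The authors deposited read counts per gene without normalization, in the featureCounts layout on mm10 (GRCm38), with the summed exon length of each gene. The submitters' processing notes name STAR and featureCounts, while the setting for strand and for reads with several matches is not given in the sources used here. All 8 columns of counts were matched to mice by their titles, and symbols came from GENCODE M21. The 512 genes without a symbol held 0.0399% of the counts. Replicates were separate mice and were grouped by genotype.

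Counts were filtered with filterByExpr (minimum count 10, minimum total 15), scaled with TMM factors and tested by edgeR 4.0.16 (quasi-likelihood F test; R 4.3.3) with genotype as the single term and Benjamini-Hochberg adjustment over every tested gene. The limits were an adjusted P of 0.05 and an absolute log2 fold change of 1.5. Marker genes that missed the filter were read from the fit without a filter. Standard errors and 95% intervals were derived from the F statistic and its degrees of freedom. For single genes, normalized levels (CPM) were compared by a two-sided exact permutation test (scipy 1.17.1). Intervals and limits of counts cover counting error only. Pearson's r used log2(CPM + 0.1). Alternatives used DESeq2 1.42.0 and limma 3.58.1, other normalizations and filters, and the removal of each mouse in turn. The methods were also run on simulated counts of genes that passed the filter, which does not cover the marker genes that missed it. That run used changes larger than the limit and less spread between mice than was fitted here.

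The marker genes, lists and tests were chosen with earlier results of these data known. Named genes are the 10 marker genes, in each list the 3 genes of highest mean count and up to 3 with an unadjusted P under 0.05 and the largest log2 fold change, and the 5 genes of most similar pattern. Other genes named, such as Foxo1, Il17a, Cd28, Foxp3, Gata3, Eomes, Tbx21, Ifng and Fasl, were chosen after their values were seen. Some genes that this rule selects are not reported here.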

Additional observations from a re-analysis of the deposited data

Results flagged for a closer look

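In groups of 4 mice, a liver was set apart when its gap to the nearest other liver passed Dixon's 95% limit as a share of the range of the group. This was examined in 50 groups, of which 4 passed the limit, where chance gives about 1 in 20 for independent groups. These groups reuse the same livers, and Nkg7 is part of the marker sum, so the 4 are not separate results. WT replicate 22 had 1.37 CPM of Cd3g, while the other WT livers had 0.240 to 0.394. MøFoxO1-KO replicate 29 had 2.66 CPM of Nkg7, against 0.810 to 1.02 in the other MøFoxO1-KO livers. The same liver had 11.9 CPM summed over the 10 marker genes, against 5.26 to 6.19 in the other livers of its group. Its summed level of neutrophil and monocyte markers was 24.5 CPM, against 7.13 to 10.0 in the others.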

How the results depend on the processing

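No marker gene was called in any alternative that tested one, and requiring at least 10 counts in every mouse left no marker gene to test. The count of called genes over all tested genes was 25, and it was 120 without a filter on low counts, 144 with the Wald test of DESeq2, 13 with limma-voom and 39 at the adjusted P alone (Benjamini-Hochberg in each). Leaving out 1 mouse gave 3 to 82 called genes, with 15 without WT replicate 22, 3 without WT replicate 25, and 9, 7, 82 and 13 without MøFoxO1-KO replicates 26, 27, 28 and 29. Of 144 alternative values of the marker genes, 137 kept their direction and 7 reversed. Without MøFoxO1-KO replicate 29 the log2 fold change was -0.13 for Nkg7 and -0.12 for Klrb1c, without WT replicate 25 it was -0.15 for Klrb1c, and without WT replicate 24 it was 0.10 for Prf1. The removal of WT replicate 23 and MøFoxO1-KO replicate 29 together, chosen after seeing the data, gave -0.11 for Cd3e, -0.042 for Cd3g and -0.33 for Nkg7. The cause was not tested. The log2 ratio of the summed marker genes was between 0.10 and 0.67 with 1 mouse left out, -0.02 without those 2 mice, and -0.20 when each sum was divided by the pan-leukocyte sum of the same liver, also chosen after seeing the data. With 1 mouse left out, the log2 fold change was 0.19 to 1.25 for Cd3d, 0.12 to 1.05 for Cd3e, 0.18 to 1.35 for Cd3g, 0.053 to 0.46 for Cd4, 0.033 to 0.45 for Cd8a, -0.13 to 0.80 for Nkg7, 0.15 to 0.83 for Gzma, 1.23 to 1.97 for Gzmb, -0.15 to 0.61 for Klrb1c and -1.04 to 0.10 for Prf1. Over the 8 livers, 7 of the 10 marker genes had under 100 reads, and the part of depth in these values was not tested. The labels give no litter or pair, and the replicate numbers are not shared between the groups. No paired analysis was therefore possible, and litter was not modelled.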
